A study of Mus musculus with 14 samples.

Results

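The genes described here are 45 mouse genes for making ribosomes: assembly factors of the nucleolus and parts of RNA polymerase I. They were taken by symbol from a list of names, which was drawn up with earlier results of these data known, and 45 of 45 were found among the 55487 gene identifiers of the count table. All 45 were among the 14754 genes with enough counts to test, and the lowest count of any of them in a library was 225. The 14 libraries hold mRNA of monocytes isolated from mouse bone marrow with a commercial isolation kit and kept for 3 h in medium or in medium with 20 ng/mL of IL-4, which is a signal of type 2 immunity known to activate monocytes and macrophages along the alternative route. Wild-type cells gave 4 libraries in medium and 4 in IL-4 (numbers 1, 2, 3 and 7), and AhR-deficient cells 3 in each (numbers 4, 5 and 6). AhR is the aryl hydrocarbon receptor, which binds small molecules and then acts as a transcription factor. The sources used here do not give the deficient allele or the strain, age and sex of the mice, nor whether a library comes from 1 animal or a pool, so p-values measure only the spread between these libraries.

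Ribosomes are built in the nucleolus. RNA polymerase I transcribes the long ribosomal RNA precursor, small nucleolar ribonucleoproteins (snoRNPs) modify its bases and sugars, and the small-subunit processome and the precursors of the large subunit fold and cut it while ribosomal proteins join. Cells that prepare to grow raise the mRNAs of these factors together, and the transcription factor MYC, which binds the DNA sequence CACGTG (an E-box) with its partner MAX, is a known activator of many of them.

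The sequences around the start sites were searched for 3 binding patterns, a feature that the choice of genes did not use. In RefSeq windows of GRCm38.p6 from 250 bases before to 50 bases after a start site, 40 of the 45 genes had a window (not Bop1, Npm1, Fbl, Rrp12 or Rrs1). CACGTG, which reads the same on both strands, was found in 9 of the 40 (22.5%), against 8.09% of 27025 genes with a window and 11.6% of the 10152 of those that were tested here. The pattern TTC and GAA separated by any 4 bases, a form of the site for STAT6, the factor that IL-4 activates, was found in 6 of 40 (15%: Nop14, Ddx21, Nop16, Rrn3, Bysl and Dkc1), against 8.01% of all genes and 6.83% of those tested. TCTCG followed by CGAGA, the site of the factor BANP, was found in 0 of 40, against 0.525% and 1.13%. These are matches of letters and not measured binding. The 10 CACGTG matches are shown with the surrounding bases, 5′ to 3′ on the strand of the gene, with CACGTG in capitals and its first base counted from the start site as +1.
Nop2 (chr6:125131811-125131840, plus strand, -60): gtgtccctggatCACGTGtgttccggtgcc
Utp4 (chr8:106893643-106893672, plus strand, +16): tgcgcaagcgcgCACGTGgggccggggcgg
Ltv1 (chr10:13193092-13193121, minus strand, +29): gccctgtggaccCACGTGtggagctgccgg
Utp20 (chr10:88826765-88826794, minus strand, +38): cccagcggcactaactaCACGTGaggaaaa
Pes1 (chr11:3963965-3963994, plus strand, +3): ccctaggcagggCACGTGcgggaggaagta
Mybbp1a (chr11:72441347-72441376, plus strand, +41): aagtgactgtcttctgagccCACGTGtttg
Tsr1 (chr11:74898092-74898121, plus strand, +25): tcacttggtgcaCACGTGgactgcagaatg
Rrn3 (chr16:13780472-13780501, plus strand, -215): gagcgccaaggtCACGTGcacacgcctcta
Rrn3 (chr16:13780639-13780668, plus strand, -48): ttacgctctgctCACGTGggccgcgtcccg
Wdr43 (chr17:71616220-71616249, plus strand, +18): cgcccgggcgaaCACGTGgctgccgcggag

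In 7 of these 9 genes the match lay just inside the transcript, and in Nop2, an RNA methyltransferase of the large subunit, and Rrn3, the factor that brings RNA polymerase I to its promoter, it lay upstream. Their full 250 bases before the start site are shown because Rrn3 holds both patterns: capitals mark CACGTG and, in Rrn3, also TTC and GAA with the 4 bases between them.
Nop2 (chr6:125131633-125131882, plus strand): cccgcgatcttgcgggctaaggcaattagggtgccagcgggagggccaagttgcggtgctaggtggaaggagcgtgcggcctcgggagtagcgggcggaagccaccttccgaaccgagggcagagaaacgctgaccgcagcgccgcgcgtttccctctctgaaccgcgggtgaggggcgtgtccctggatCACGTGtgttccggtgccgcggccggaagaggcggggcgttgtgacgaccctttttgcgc
Rrn3 (chr16:13780449-13780698, plus strand): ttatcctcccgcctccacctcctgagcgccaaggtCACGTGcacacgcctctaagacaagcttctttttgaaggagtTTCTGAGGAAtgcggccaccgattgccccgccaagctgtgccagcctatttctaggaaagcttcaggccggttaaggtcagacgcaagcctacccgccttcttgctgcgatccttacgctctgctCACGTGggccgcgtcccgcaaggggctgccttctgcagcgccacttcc

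Levels are CPM, a gene's share of its library's counts scaled to a fixed total and corrected for library composition by TMM. As facts of the whole series, library totals ran from 33432502 to 42885079 counts. Ahr mRNA was higher in the AhR-deficient libraries (log2 difference in medium 0.69, edgeR adjusted p = 0.0144), and which part of the gene is deleted is not given, so its level does not check the labels. Transcripts of the sex chromosomes separated the genotypes: Xist was at most 2.11 CPM in wild-type and at least 987 CPM in AhR-deficient libraries, and Ddx3y at least 114 CPM and 0 CPM, so genotype and sex cannot be told apart. Summed levels of 9 neutrophil markers in medium ran from 431 to 1106 CPM in wild type and from 346 to 674 in AhR-deficient cells, and in IL-4 from 493 to 973 and from 307 to 569, with the highest sums in wild-type numbers 1 and 2. The 8 monocyte markers summed to at least 4044 CPM in every library, but Ccr2, a defining receptor of classical monocytes, was at 302 to 564 CPM in all 6 AhR-deficient libraries and 478 in wild type in medium number 7, against at least 1424 in the other wild-type libraries. The B cell list summed to at most 3.77 CPM and the T and NK cell list to at most 4.12, with Ncr1 at 0 in 13 of 14 libraries. Mki67, a marker of dividing cells, was at 762 to 1013 CPM throughout.

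IL-4 raised most of the ribosome biogenesis mRNAs within 3 h in both genotypes. In wild type, 38 of the 45 passed the test upward and 2 downward, with a median log2 fold change of 0.46 against 0.01 over all genes tested. Of all genes tested, 19.4% were called higher and 16.5% lower in that comparison. In AhR-deficient cells, 37 were called higher and 1 lower, with a median of 0.54 against -0.01 over all genes, where 15.4% were called higher and 14.2% lower. The test was edgeR's quasi-likelihood F-test on all 14 libraries with Benjamini-Hochberg adjustment over the 14754 genes, and a gene was called at an adjusted p under 0.05. In bulk RNA, fewer cells with a high level and less RNA per cell cannot be told apart.

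The rise was seen in every library. The summed level of the 45 genes was 2668, 2697, 2775 and 2707 CPM in wild type in medium (numbers 1, 2, 3 and 7) and 3268, 3227, 3469.8 and 3484 CPM in IL-4. In AhR-deficient cells (numbers 4, 5 and 6) it was 2755, 2862 and 2798 CPM in medium and 3698, 3771 and 3593 CPM in IL-4. Every IL-4 library lay above every medium library. As percentages of the TMM-corrected total, which are not plain shares of the counts, these sums gave 0.271% ± 0.0045 in wild type in medium (SD, n = 4). In wild type in IL-4 they gave 0.336% ± 0.013 (SD, n = 4). In AhR-deficient cells they gave 0.281% ± 0.0054 in medium and 0.369% ± 0.0090 in IL-4 (SD, n = 3 each). Ncl and Npm1 alone made up 16.8% and 14.9% of the sum in wild type in medium and had small responses. Without them the sum went from 1852 ± 47.3 to 2475 ± 114.7 CPM in wild type and from 1958 ± 31.2 to 2768 ± 76.9 CPM in AhR-deficient cells (SD, n = 4 and 3).

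**Figure D1:**
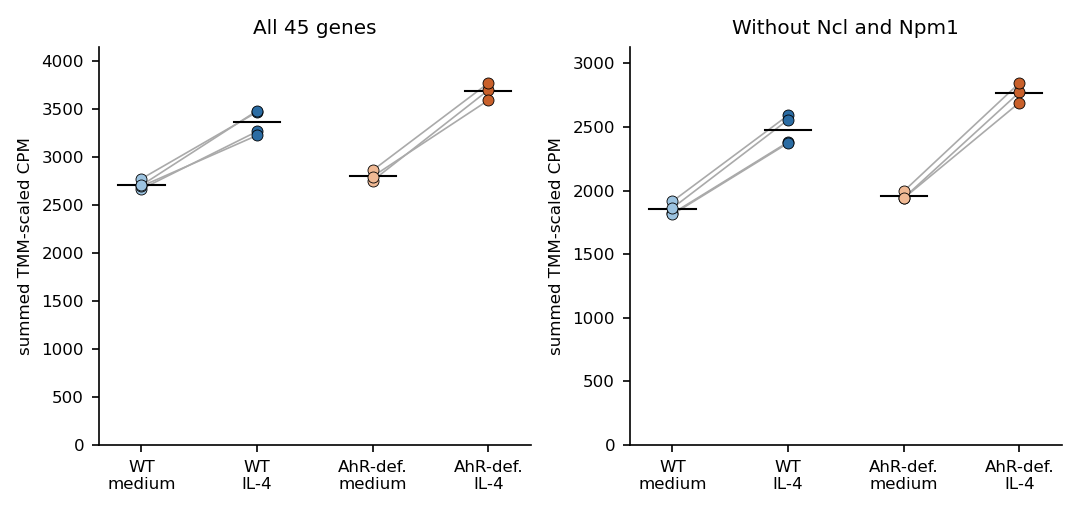
Summed TMM-scaled CPM of the 45 genes (left) and of the 43 left without Ncl and Npm1 (right) in each library, by group (WT, wild type; AhR-def., AhR-deficient); points are libraries, grey lines join libraries of the same number and bars are group means. In the left panel the medium libraries lie between 2668 and 2862 CPM and the IL-4 libraries between 3227 and 3771 CPM.

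Within each number, the median log2 difference of the 45 genes between IL-4 and medium was 0.39, 0.40, 0.45 and 0.48 in wild type (numbers 1, 2, 3 and 7) and 0.52, 0.53 and 0.50 in AhR-deficient cells (numbers 4, 5 and 6). All 7 numbers moved the same way. Of the 45 genes, 38 were higher in IL-4 in 7 of 7 numbers, and the share of all genes for which this held was not counted. The groups did not overlap for 37 genes upward in wild type and 40 in AhR-deficient cells, where 18.4% and 22.3% of all genes tested were apart upward. The 2 responses share no library, and across the 45 genes they correlated with Pearson's r of 0.959 and Spearman's rho of 0.956, against r of 0.866 over all genes tested. Genes are not independent replicates, so no p is given.

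Called higher in both genotypes were 36 of the 45, and a further 2 (Nhp2 and Ltv1) only passed in wild type and 1 (Wdr3) only in AhR-deficient cells. No difference between the genotypes' responses was called for these 3 genes. By genotype, 19.4% and 15.4% of all genes tested were called higher. The share of all genes called higher in both was not counted, either here or in the model that follows. Libraries of the same number were taken to pair across treatments, which the labels do not state. Number 7 was the weakest pair: over 8688 genes its deviations correlated at 0.118, and not best with its own number. With the number as a block in the model, 39 genes were called higher and 3 lower in wild type (22.8% and 19.9% of all genes), and 40 higher and 1 lower in AhR-deficient cells (18.4% and 17.8%), with 39 called higher in both. The block added Rrp1b as higher in wild type (adjusted p = 0.0465), and Nhp2, Ltv1 and Rrp1b in AhR-deficient cells (adjusted p = 0.0274, 0.0428 and 0.00865).

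**Figure D2:**
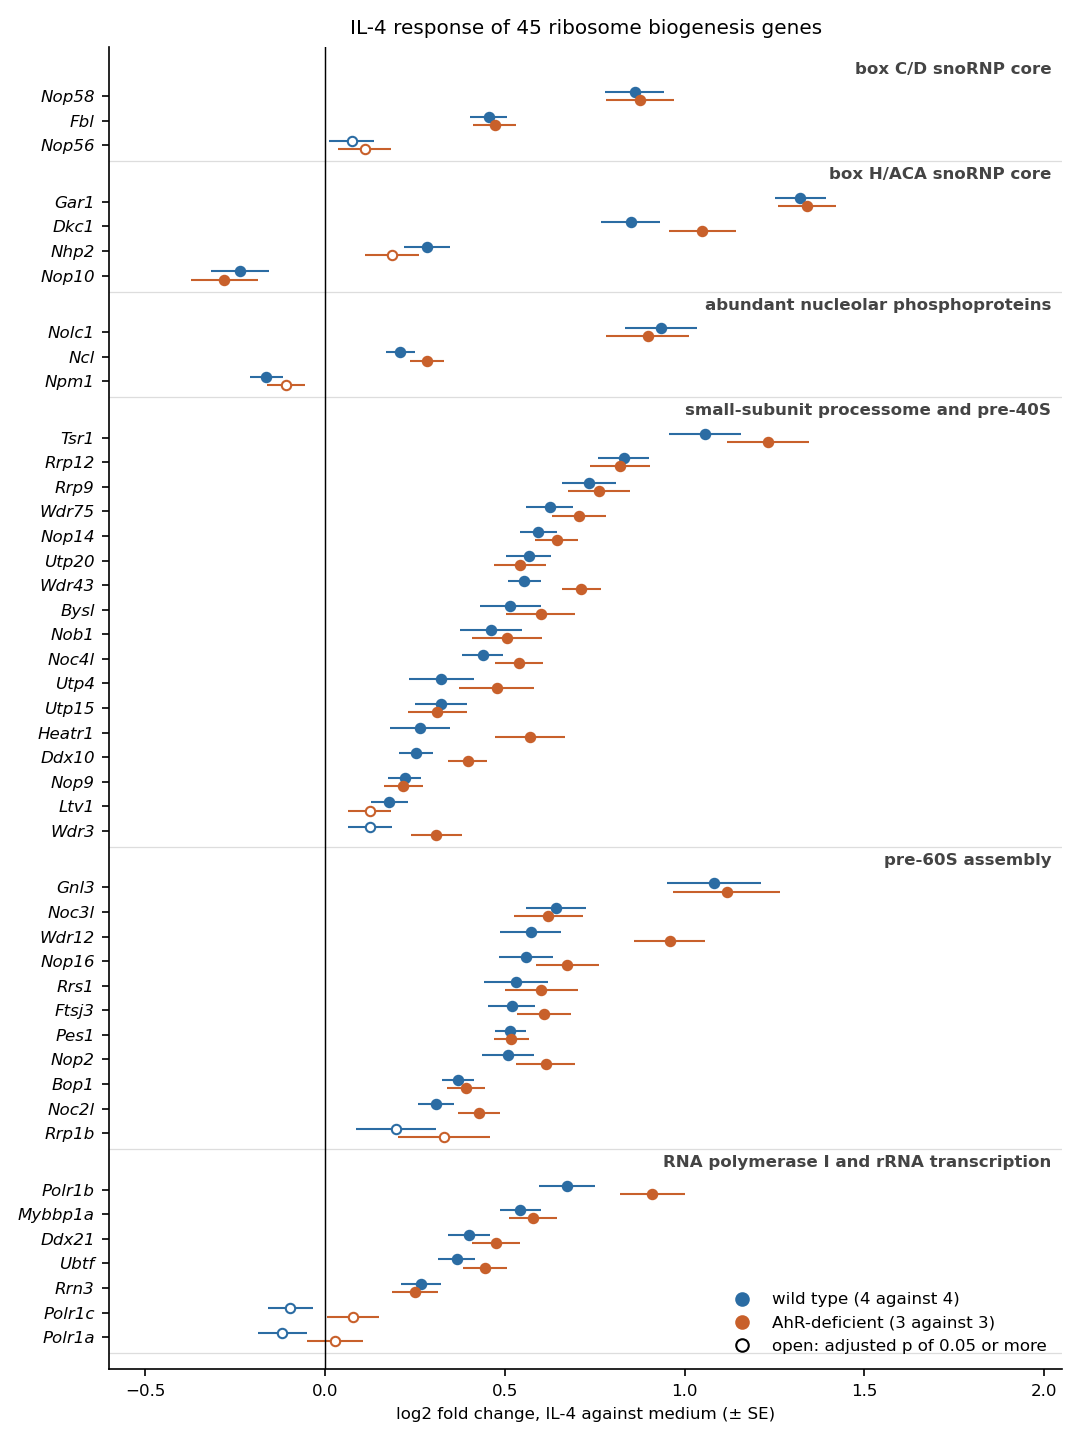
Log2 fold change of each gene, IL-4 against medium, with its standard error, grouped by role (wild type in blue, 4 against 4 libraries; AhR-deficient in orange, 3 against 3); filled points passed an adjusted p of 0.05 and open points did not. Nearly all points lie to the right of 0, Gar1 farthest at 1.32 and 1.34, while Nop10 lies to the left at -0.24 and -0.28.

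The size of the response differed widely between genes. A log2 fold change of at least 1 was reached by 3 genes in wild type (Gar1, Gnl3 and Tsr1) and 4 in AhR-deficient cells (Gar1, Tsr1, Gnl3 and Dkc1), and one of at least 0.5 by 22 and 25 genes. Genes of low level responded more than genes of high level. Across the 45 genes, mean log2 CPM in medium and the response had a Spearman rho of -0.62 in wild type and -0.61 in AhR-deficient cells, given as a description since the points share libraries and the medium values enter both measures. Per kb of exon, Npm1 (152 CPM per kb), Ncl (44.7) and Pes1 (33.5) were the highest of the 45 in wild type in medium, and Gnl3 (2.68), Polr1b (2.07) and Wdr12 (0.881) the lowest.

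The core proteins of the box C/D snoRNPs, which guide methylation of ribose in ribosomal RNA, did not move alike. Nop58, a scaffold protein, was at 35.6, 39.0, 44.7 and 43.3 CPM in wild type in medium and 68.9, 68.5, 80.4 and 77.7 in IL-4. In AhR-deficient cells it was at 53.9, 52.3 and 47.2 CPM in medium and 98.2, 98.6 and 85.1 in IL-4. All IL-4 libraries were above all medium libraries, with a log2 fold change of 0.86 ± 0.08 (SE) in wild type and 0.88 ± 0.09 in AhR-deficient cells (adjusted p = 1.75e-06 and 7.83e-06). Fbl, fibrillarin, the methyltransferase itself, also rose, by a log2 of 0.45 ± 0.05 and 0.47 ± 0.06. Nop56, which pairs with Nop58 in the same particle, was at 49.5, 49.3, 56.9 and 54.7 CPM in wild type in medium and 54.8, 55.1, 57.9 and 53.7 in IL-4. In AhR-deficient cells it was at 66.2, 63.9 and 58.1 CPM in medium and 71.8, 69.6 and 61.7 in IL-4. Its medium and IL-4 libraries overlapped in both genotypes, and its log2 fold changes of 0.07 ± 0.06 and 0.11 ± 0.07 did not pass the test (adjusted p = 0.413 and 0.300). The difference between Nop56 and Nop58 was not itself tested.

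The box H/ACA core, which turns uridine into pseudouridine, held both the strongest rise and a fall. Gar1, a small core protein (GRCm38 chr3:129824912-129831396, minus strand), was at 7.32, 7.28, 7.29 and 6.45 CPM in wild type in medium and 17.3, 16.8, 19.1 and 17.7 in IL-4. In AhR-deficient cells Gar1 was at 8.30, 8.69 and 7.77 CPM in medium and 22.1, 21.6 and 19.0 in IL-4. It was clearly apart in every library, 2.50-fold higher in wild type (log2 1.32 ± 0.07, adjusted p = 5.17e-09) and 2.53-fold in AhR-deficient cells (log2 1.34 ± 0.08, adjusted p = 2.66e-08). Dkc1, dyskerin, the pseudouridine synthase (chrX:75095854-75109777, plus strand), was at 15.5, 16.6, 14.5 and 13.5 CPM in wild type in medium and 25.9, 27.4, 24.7 and 30.3 in IL-4. In AhR-deficient cells Dkc1 was at 13.3, 15.7 and 13.9 CPM in medium and 31.2, 29.8 and 27.8 in IL-4. It rose by a log2 of 0.85 ± 0.08 and 1.05 ± 0.09, with no overlap; its gene is on the X chromosome and overlaps exons of Mpp1 on the other strand. Nhp2, the RNA-binding member, was called in wild type (0.28 ± 0.06, adjusted p = 0.00343) and had 0.19 ± 0.07 in AhR-deficient cells (adjusted p = 0.0792).

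Nop10, the smallest H/ACA core protein (chr2:112261926-112263269, plus strand), went the other way. It was at 27.7, 26.6, 22.9 and 26.2 CPM in wild type in medium and 24.4, 19.5, 21.0 and 22.8 in IL-4. In AhR-deficient cells it was at 27.3, 25.4 and 26.7 CPM in medium and 23.2, 19.5 and 22.6 in IL-4. It was lower in IL-4 in 7 of 7 numbers, with groups that overlapped in wild type and not in AhR-deficient cells, and fell by 0.24 ± 0.08 (adjusted p = 0.0345) and 0.28 ± 0.09 (adjusted p = 0.0354) on the log2 scale. The call was fragile: it was lost in wild type without medium number 1, 2 or 7, without IL-4 number 2 or 3 and with only the groups compared (adjusted p = 0.0549), and in AhR-deficient cells without medium number 4 or 6, without IL-4 number 5 or 6 and without a filter (0.0627).

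Among the abundant nucleolar phosphoproteins, Nolc1, a chaperone of snoRNPs, rose most. It was at 28.2, 27.5, 36.5 and 30.7 CPM in wild type in medium and 53.6, 53.4, 66.2 and 61.6 in IL-4, and at 40.4, 43.4 and 36.0 and 76.2, 79.6 and 67.5 in AhR-deficient cells. These groups did not overlap, and the log2 fold changes were 0.93 ± 0.10 and 0.90 ± 0.12. Ncl, nucleolin, a binder of ribosomal RNA and chromatin, was at 437, 462, 465 and 456 CPM in wild type in medium and 528, 506, 530.03 and 542 in IL-4, and at 438, 471 and 469.9 and 561, 566 and 551 in AhR-deficient cells. It rose little, by a log2 of 0.21 ± 0.04 (adjusted p = 0.00104) and 0.28 ± 0.05 (adjusted p = 0.000365). Npm1, nucleophosmin, a histone and ribosome chaperone, was at 411, 423, 395 and 389 CPM in wild type in medium and 360.2, 349, 349 and 386 in IL-4, and at 376, 398 and 389 and 367, 362 and 351 in AhR-deficient cells. It was lower in IL-4 in 7 of 7 numbers, with no overlap, and fell by 0.16 ± 0.05 on the log2 scale in wild type (adjusted p = 0.0114), while the value of -0.11 ± 0.05 in AhR-deficient cells missed the threshold (adjusted p = 0.146). Numbers 1 and 2 were the wild-type libraries with the most neutrophil marker RNA. Without them, 3832 of all genes were called in wild type in either direction, against 5296 in the main fit. Of the genes described here, 36 were then still called higher and 0 lower: Nop10 and Npm1 had adjusted p-values of 0.244 and 0.274. Abundant genes of this kind can share reads with processed copies elsewhere in the genome, and how such reads were counted is not given, so the levels of Npm1, Ncl and Nop10 are uncertain to that extent.

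**Figure D3:**
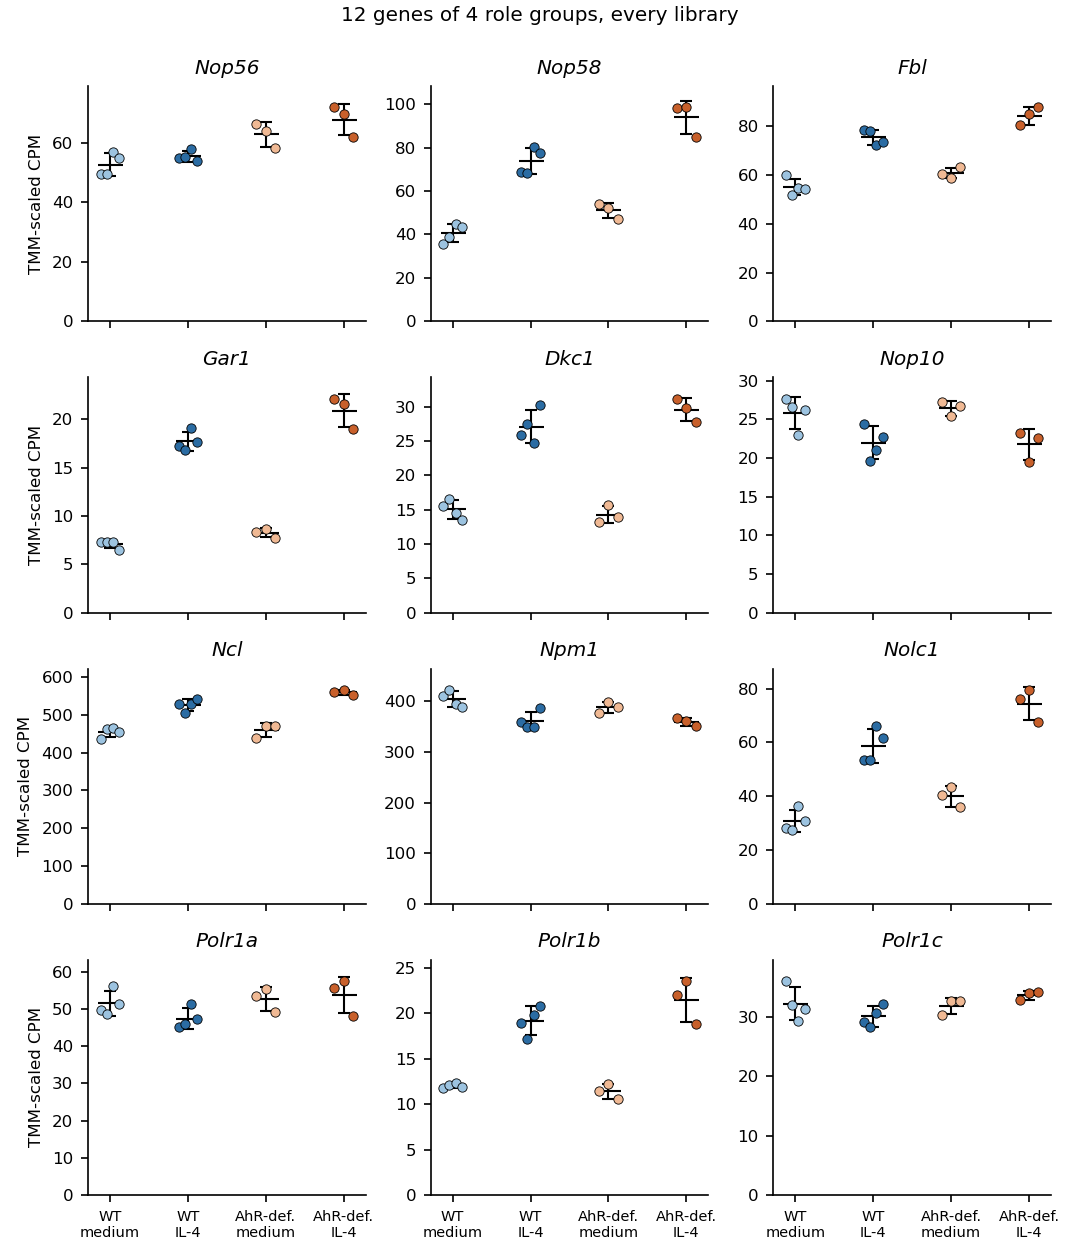
TMM-scaled CPM of 12 genes of 4 role groups (rows: box C/D core, box H/ACA core, nucleolar phosphoproteins, RNA polymerase I subunits) in every library; points are libraries, bars the group mean ± SD (n = 4 for wild type and 3 for AhR-deficient). Nop56, Polr1a and Polr1c change by at most 0.12 on the log2 scale in either direction, and Nop10 and Npm1 lie lower in IL-4, beside partners that rose.

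Of the 17 factors of the small subunit, 16 were called higher in wild type and 16 in AhR-deficient cells, and 0 lower. Their median log2 fold changes were 0.46 and 0.54. Tsr1, a late factor of the small subunit that resembles a GTPase (chr11:74898071-74909342, plus strand), led them. Tsr1 was at 15.7, 15.7, 20.1 and 17.2 CPM in wild type in medium and 31.5, 33.1, 41.3 and 37.5 in IL-4, and at 20.1, 21.0 and 20.4 and 51.4, 50.9 and 42.2 in AhR-deficient cells. The lowest IL-4 library was well above the highest medium library, with a log2 fold change of 1.06 ± 0.10 (adjusted p = 1.60e-06) and 1.23 ± 0.12 (adjusted p = 2.10e-06). Rrp12, a factor of export and late maturation, went from 22.5, 20.9, 23.6 and 21.3 to 35.9, 37.7, 39.8 and 43.9 CPM in wild type and from 22.1, 26.0 and 23.3 to 39.5, 43.3 and 43.4 CPM in AhR-deficient cells. Rrp9, the protein specific to the U3 snoRNP, went from 11.4, 10.6, 13.1 and 10.5 to 18.8, 18.2, 20.3 and 18.8 CPM and from 13.2, 13.2 and 11.9 to 21.1, 23.1 and 20.9 CPM. Neither gene's groups overlapped, and the log2 fold changes were 0.83 and 0.82 for Rrp12 and 0.74 and 0.76 for Rrp9.

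The members of the UTP-A complex, which binds the nascent precursor first and also serves its transcription, rose unevenly. Wdr75 and Wdr43 had log2 fold changes of 0.63 and 0.55 in wild type and 0.71 and 0.71 in AhR-deficient cells. Utp4 and Utp15 had 0.32 and 0.32 in wild type and 0.48 and 0.31 in AhR-deficient cells, all called. Heatr1, the large scaffold of that complex, was at 99.0, 94.5, 85.2 and 105 CPM in wild type in medium and 109, 109, 119.97 and 124 in IL-4, and at 84.0, 107 and 91.1 and 136, 152 and 131 in AhR-deficient cells. It did not overlap between treatments in either genotype, with 0.27 ± 0.08 in wild type and 0.57 ± 0.10 in AhR-deficient cells (adjusted p = 0.0236 and 0.000448). The wild-type call was lost without medium number 2 or 3, without IL-4 number 3 or 7, and without numbers 1 and 2 together (adjusted p = 0.0750).

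Other early factors rose as well. Nop14 and its partner Noc4l had log2 fold changes of 0.59 and 0.44 in wild type and 0.64 and 0.54 in AhR-deficient cells. Utp20, a large scaffold, had 0.57 and 0.54, the RNA helicase Ddx10 0.25 and 0.40, and the RNA-binding Nop9 0.22 and 0.22. Wdr3, of the UTP-B complex, was at 70.0, 72.1, 70.2 and 63.3 CPM in wild type in medium and 69.3, 78.0, 78.6 and 74.7 in IL-4, and at 53.7, 60.7 and 64.4 and 73.8, 73.3 and 74.4 in AhR-deficient cells. Its groups overlapped in wild type (0.13 ± 0.06, adjusted p = 0.130) and were apart in AhR-deficient cells (0.31 ± 0.07, adjusted p = 0.00410). Of the later factors, Bysl had 0.52 and 0.60, and Nob1, the endonuclease that makes the final cut of the small-subunit RNA, 0.46 and 0.51. Ltv1, an export adaptor, moved least of those called in wild type, at 0.18 ± 0.05 (adjusted p = 0.0157), and had 0.12 ± 0.06 in AhR-deficient cells (adjusted p = 0.148). The wild-type call of Ltv1 was lost without IL-4 number 3 (adjusted p = 0.0540), without a filter (0.0625) and without numbers 1 and 2 (0.0643).

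Of the 11 factors of the large subunit, 10 were called higher in each genotype and 0 lower, with medians of 0.52 and 0.61. Gnl3, nucleostemin, a nucleolar GTPase of proliferating and stem cells (chr14:31012433-31019152, minus strand), was at 12.6, 14.5, 20.1 and 18.0 CPM in wild type in medium and 32.3, 31.4, 37.7 and 37.1 in IL-4. In AhR-deficient cells it was at 24.5, 21.9 and 21.0 CPM in medium and 53.5, 51.4 and 41.4 in IL-4. Its groups did not overlap, with 1.08 ± 0.13 (adjusted p = 1.72e-05) and 1.12 ± 0.15 (adjusted p = 5.75e-05). Gnl3 overlaps exons of Pbrm1 on the other strand.

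Pes1, Bop1 and Wdr12 form the PeBoW complex, which is needed to process the large-subunit RNA, and all 3 were called in both genotypes. Pes1 went from 104, 98.5, 98.0 and 104 to 147, 143, 139 and 151 CPM in wild type and from 94.2, 99.99 and 102 to 139, 141 and 145 CPM in AhR-deficient cells. Wdr12 went from 12.2, 10.8, 9.93 and 9.22 to 15.9, 15.1, 15.6 and 16.1 CPM in wild type and from 8.69, 9.69 and 8.88 to 19.7, 16.5 and 16.9 CPM in AhR-deficient cells. Their groups did not overlap. The log2 fold changes in wild type and AhR-deficient cells were 0.52 and 0.52 for Pes1, 0.37 and 0.39 for Bop1, and 0.57 and 0.96 for Wdr12.

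The other large-subunit factors followed closely. Noc3l and Noc2l, partners in early particles, had 0.64 and 0.31 in wild type and 0.62 and 0.43 in AhR-deficient cells. Nop16 had 0.56 and 0.67, Rrs1, a factor of early large-subunit particles, 0.53 and 0.60, and the RNA methyltransferases Ftsj3 and Nop2 0.52 and 0.51 in wild type and 0.61 and 0.61 in AhR-deficient cells. Rrp1b, a nucleolar partner of a protein phosphatase, was at 30.9, 23.7, 28.1 and 25.9 CPM in wild type in medium and 29.9, 27.5, 31.8 and 35.4 in IL-4, and at 28.4, 37.1 and 30.1 and 39.0, 45.8 and 35.5 in AhR-deficient cells. Its libraries overlapped between treatments, and 0.20 ± 0.11 and 0.33 ± 0.13 did not pass (adjusted p = 0.193 and 0.0682), though both passed with the number as a block, as given above.

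The transcription machinery of ribosomal RNA split between genes that rose and subunits that did not pass the test. Of its 7 genes, 5 were called higher in each genotype. Polr1b, which forms the active centre of RNA polymerase I with Polr1a, was at 11.8, 12.1, 12.3 and 11.8 CPM in wild type in medium and 18.9, 17.1, 19.8 and 20.8 in IL-4, and at 11.4, 12.2 and 10.6 and 21.9, 23.5 and 18.8 in AhR-deficient cells. No libraries overlapped, and the log2 fold changes were 0.67 ± 0.08 (adjusted p = 1.16e-05) and 0.91 ± 0.09 (adjusted p = 3.72e-06). Polr1a, the largest subunit, was at 49.7, 48.7, 56.1 and 51.4 CPM in wild type in medium and 45.1, 45.8, 51.3 and 47.4 in IL-4, and at 53.4, 55.4 and 49.2 and 55.5, 57.5 and 48.2 in AhR-deficient cells. Its groups overlapped, and -0.12 ± 0.07 and 0.03 ± 0.08 did not pass (adjusted p = 0.199 and 0.842). With the number as a block, Polr1a was called lower in wild type (-0.12, adjusted p = 0.0250) and not in AhR-deficient cells (adjusted p = 0.683). Polr1c, a subunit shared with RNA polymerase III, had -0.10 ± 0.06 and 0.08 ± 0.07, with overlapping groups in wild type and groups just apart in AhR-deficient cells, and neither passed (adjusted p = 0.267 and 0.476).

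Among the factors that act with the polymerase, Mybbp1a, a nucleolar Myb-binding protein, and Ddx21, an RNA helicase that senses transcription by polymerases I and II, rose by a log2 of 0.54 and 0.40 in wild type and 0.58 and 0.48 in AhR-deficient cells. Ubtf, the factor that coats active ribosomal RNA genes, went from 173, 155, 167 and 175 to 213, 206, 229 and 216 CPM in wild type and from 151, 153 and 159 to 196, 213 and 221 CPM in AhR-deficient cells. Rrn3 went from 43.6, 46.6, 51.4 and 47.5 to 55.6, 53.9, 60.3 and 57.9 CPM in wild type and from 53.0, 52.0 and 50.7 to 65.5, 60.9 and 58.8 CPM in AhR-deficient cells. These were apart in every library, by a log2 of 0.37 and 0.45 for Ubtf and 0.27 and 0.25 for Rrn3.

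The 9 genes whose start-site windows hold CACGTG, shown above, were called at rates near those of all 45 (84.4% higher in wild type and 82.2% in AhR-deficient cells): 9 of 9 in wild type, from 0.18 for Ltv1 to 1.06 for Tsr1, and all but Ltv1 in AhR-deficient cells. Gar1, Gnl3 and Dkc1, which also responded strongly, have no CACGTG in the window. Myc itself was at 3.17, 2.62, 3.44 and 3.44 CPM in wild type in medium and 10.7, 9.99, 13.2 and 11.5 in IL-4, and at 5.90, 5.16 and 4.48 and 18.3, 17.2 and 15.1 in AhR-deficient cells. It was several times higher in every IL-4 library, with a log2 fold change of 1.84 ± 0.12 (adjusted p = 3.82e-08) and 1.70 ± 0.13 (adjusted p = 3.75e-07). Mxi1, which competes with MYC for MAX and represses, fell from 101, 97.8, 66.0 and 98.2 to 40.1, 38.3, 29.6 and 35.1 CPM in wild type and from 62.8, 73.3 and 76.7 to 28.8, 30.1 and 34.0 CPM in AhR-deficient cells (log2 -1.34 and -1.20). Of the 10 tested genes of the MYC network, 1 was called higher and 2 lower in wild type (Myc; Mxi1 and Mxd1), and 4 higher and 3 lower in AhR-deficient cells (Myc, Max, Mxd4 and Mga; Mxi1, Mxd1 and Mycl). Whether MYC takes part in the response of the 45 genes was not tested.

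Most of 133 further ribosome factors, in lists drawn up with earlier results of these data known, moved the same way. Of the 132 tested, 91 were called higher and 5 lower in wild type, and 80 higher and 3 lower in AhR-deficient cells. Their median log2 fold change was 0.26 in each genotype. Other small-subunit factors gave 26 higher and 1 lower of 41 in wild type and 24 and 0 in AhR-deficient cells, led by Wdr46 (1.34 and 1.29) and Nol6 (1.05 and 1.01), both parts of the processome. Other large-subunit factors gave 35 higher and 2 lower of 44 and 30 higher and 3 lower, with Nle1 at 1.08 and 1.20 and Rrp15 at 0.84 and 0.82. Other snoRNP parts and assembly factors gave 8 higher and 0 lower of 12 in each genotype, with Tcof1, treacle, which links snoRNPs to RNA polymerase I, at 0.77 and 0.60. The RNA exosome and nucleases gave 15 higher of 20 in wild type and 12 in AhR-deficient cells, with 0 lower. Pop4, a protein of RNase P and RNase MRP, led in wild type (0.66). It had 0.76 in AhR-deficient cells, where the highest of the list was 0.89.

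Other subunits and factors of RNA polymerase I moved less: 7 higher and 2 lower of 15 in wild type and 6 higher and 0 lower in AhR-deficient cells, with medians of 0.13 and 0.10. Polr1h (0.27 and 0.26) and Polr1e (0.27 and 0.36) were among those called higher. The 2 lower in wild type were Polr2e (-0.27), a subunit shared by the nuclear polymerases, and Taf1d (-0.18). The other genes called lower in wild type were Riok2 (-0.20), Nsa2 (-0.22) and Zfp622 (-0.18), and in AhR-deficient cells Nsa2, Zfp622 and Pak1ip1 (-0.19, -0.25 and -0.18); these were named after their values were seen.

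**Figure D4:**
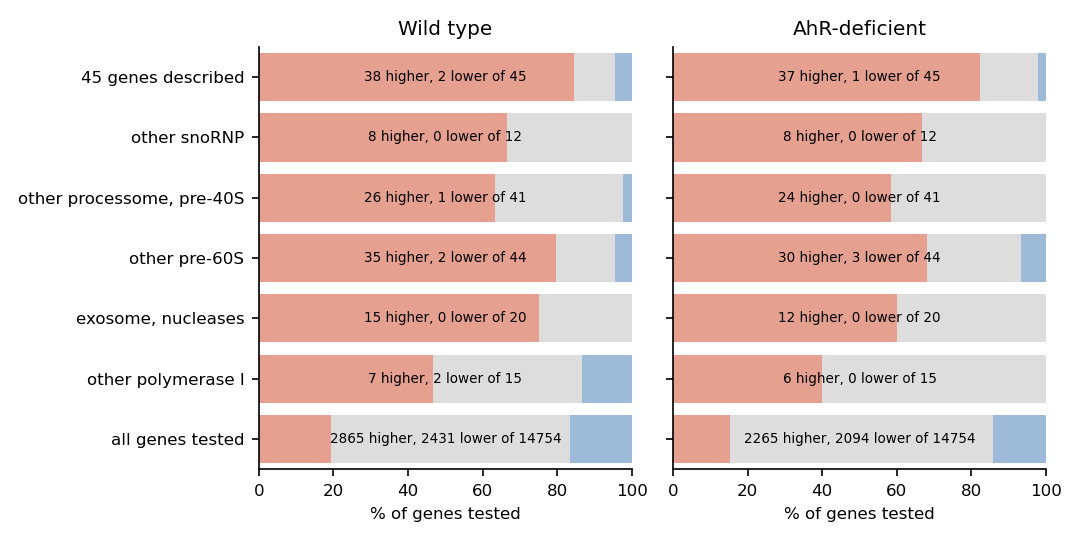
Share of tested genes called higher (red, from the left) or lower (blue, from the right) in IL-4 in the 45 genes, 5 lists of other ribosome factors and all genes tested, by genotype; the printed counts are genes at an adjusted p under 0.05. The 45 genes have the most called higher (38 and 37 of 45), other polymerase I factors the fewest of the ribosome lists (7 and 6 of 15), and all genes tested 2865 and 2265 of 14754.

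Some markers of cell type and of division also moved with IL-4. In wild type, 3 of 7 proliferation markers were called higher (Mki67, Cdk1 and Plk1, at 0.17, 0.20 and 0.24) and 0 of 7 in AhR-deficient cells, their summed level running from 1819 to 2124 CPM in medium and 2055 to 2277 in IL-4 in wild type, and from 1811 to 1868 and 1844 to 1947 in AhR-deficient cells. Of the 9 neutrophil markers, only Cxcr2 was called, higher in both genotypes (2.64 and 3.08), and of the 8 eosinophil and basophil markers 0 were called. Of 7 erythroid markers, 1 (Hba-a2) was called lower in wild type and 0 in AhR-deficient cells, with medians of -0.77 and -0.37. The 4 tested T and NK cell markers had medians of -0.22 and -0.79 with 0 called, and of 5 dendritic cell markers tested, only Flt3 was called, higher in both. Of the 8 monocyte markers, 4 were called lower in wild type and 3 in AhR-deficient cells, among them Cx3cr1 and Cd14 in both (log2 -1.73 and -2.06 in wild type), and single markers such as these and Cxcr2 changed by more than any of the 45 genes. Of 7 myeloid progenitor markers, Flt3 was called higher and Kit lower in both genotypes, and the list summed in medium to 181 to 289 CPM in wild type and 296 to 336 in AhR-deficient cells, and in IL-4 to 232 to 346 and 320.2 to 373 CPM. Their part in the response of the 45 genes was not tested.

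Few of the 45 genes were called between genotypes, and those calls depended on single libraries. In medium, 3 of the 45 genes were called higher in AhR-deficient cells and 0 lower, where 4.16% of all genes tested were called higher. They were Nop56 (0.25 ± 0.07, adjusted p = 0.0392), Nop58 (0.33 ± 0.09, adjusted p = 0.0382) and Nolc1 (0.38 ± 0.11, adjusted p = 0.0469). The libraries given above were apart for Nop56 and Nop58 and overlapped for Nolc1. All 3 calls were lost without wild-type number 1 or 2, without AhR-deficient number 4 or 5, and in a model of these 2 groups only. Nop56 was also lost with upper-quartile scaling (adjusted p = 0.05005) and without a filter (0.0718). Nolc1 was also lost without wild-type number 7 or AhR-deficient number 6, and with DESeq2 size factors (adjusted p = 0.0506), upper-quartile scaling (0.0543) and limma-voom (0.0524). Without wild-type number 3 the count was 5. In IL-4, 1 gene was called higher, Nop14 (0.24 ± 0.06, adjusted p = 0.0487), and 0 lower, where 0.956% of all genes were called higher, and leaving out single libraries gave 0 to 6 genes. The Nop14 call was lost without wild-type number 1, 2 or 7, without AhR-deficient number 4 or 5, with upper-quartile scaling (adjusted p = 0.0661), without a filter (0.0735) and in a model of these 2 groups only (0.0641). With the number as a random block in limma-voom, 4 of the 45 were called higher in medium and 8 in IL-4, Nop14 among them, where 5.14% and 1.67% of all genes were called higher.

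The direction was the same for most of the genes. The median log2 difference of the 45 was 0.12 in medium and 0.17 in IL-4, against 0.01 and -0.01 over all genes. Higher in AhR-deficient cells were 35 of the 45 in medium and 40 in IL-4, against 52.1% and 48.1% of all genes tested. In both conditions 34 were higher, and the share of all genes higher in both was not counted. The groups did not overlap upward for 10 genes in medium and 24 in IL-4, where 10.5% and 9.28% of all genes were apart upward. Medium and IL-4 libraries of a number were taken to pair, so the comparisons were not treated as independent. The largest differences were those of Gnl3, which was higher in each AhR-deficient library than in each wild-type library of the same treatment, with 0.46 ± 0.14 in medium (adjusted p = 0.0592) and 0.50 ± 0.14 in IL-4 (adjusted p = 0.0794). Tsr1 had 0.25 ± 0.11 and 0.42 ± 0.10 (adjusted p = 0.158 and 0.0573). With the random block, Gnl3 was called in medium (adjusted p = 0.0469) and in IL-4 (0.0360), and Tsr1 in IL-4 (0.0291). DESeq2 also called Gnl3 in both conditions (adjusted p = 0.0194 and 0.0130) and Tsr1 in IL-4 (0.00684). Gnl3 was also called in medium without wild-type number 3 (0.0177), and in IL-4 without a filter (0.0415) and with only the groups compared (0.0366). Tsr1 was also called in IL-4 without a filter (0.0333), with a filter of 1 CPM (0.0492) and with limma-voom (0.0419). The same held without wild-type number 3 (0.0333) or AhR-deficient number 6 (0.0452). Over the other settings the adjusted p in IL-4 ran up to 0.288 for Gnl3 (without AhR-deficient number 4) and to 0.318 for Tsr1 (without numbers 1 and 2). Myc was called higher in AhR-deficient cells in medium (0.71 ± 0.13, adjusted p = 0.0106) and in IL-4 (0.57 ± 0.12, adjusted p = 0.0333). It was the only 1 called higher of the 10 tested genes of the MYC network, of which 3 were called lower in medium and 0 in IL-4. Only 3 of the 10 were higher in AhR-deficient cells in each condition, with medians of -0.13 and -0.17.

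Several marker lists differed between genotypes too. The neutrophil markers were all 9 lower in AhR-deficient cells in both conditions with medians of -0.71 and -0.98 and 0 called. The 8 eosinophil and basophil markers had medians of -0.91 and -1.05, also with 0 called. Of the 7 myeloid progenitor markers, 6 were higher in AhR-deficient cells in each condition, with medians of 0.46 in medium and 0.27 in IL-4; 1 (Prtn3, 0.57) was called in medium and 0 in IL-4. All 7 proliferation markers were lower in both conditions, with medians of -0.10 and -0.19, groups apart for 1 and 5, and 0 called. Of the 8 monocyte markers, 6 were higher in AhR-deficient cells in each condition, with medians of 0.21 and 0.22. In each condition 1 was called higher and 1 lower, the lower one being Ccr2 (-1.75 and -1.75). Without numbers 1 and 2, the wild-type libraries with the highest neutrophil marker levels in medium, 0 of the 45 genes were called between genotypes in either condition. All genes called in either direction then fell as well, from 1197 to 30 in medium and from 239 to 25 in IL-4. The part of the cells that these lists mark, and that of sex, in the genotype differences was not tested, and genotype and sex cannot be told apart here.

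**Figure D5:**
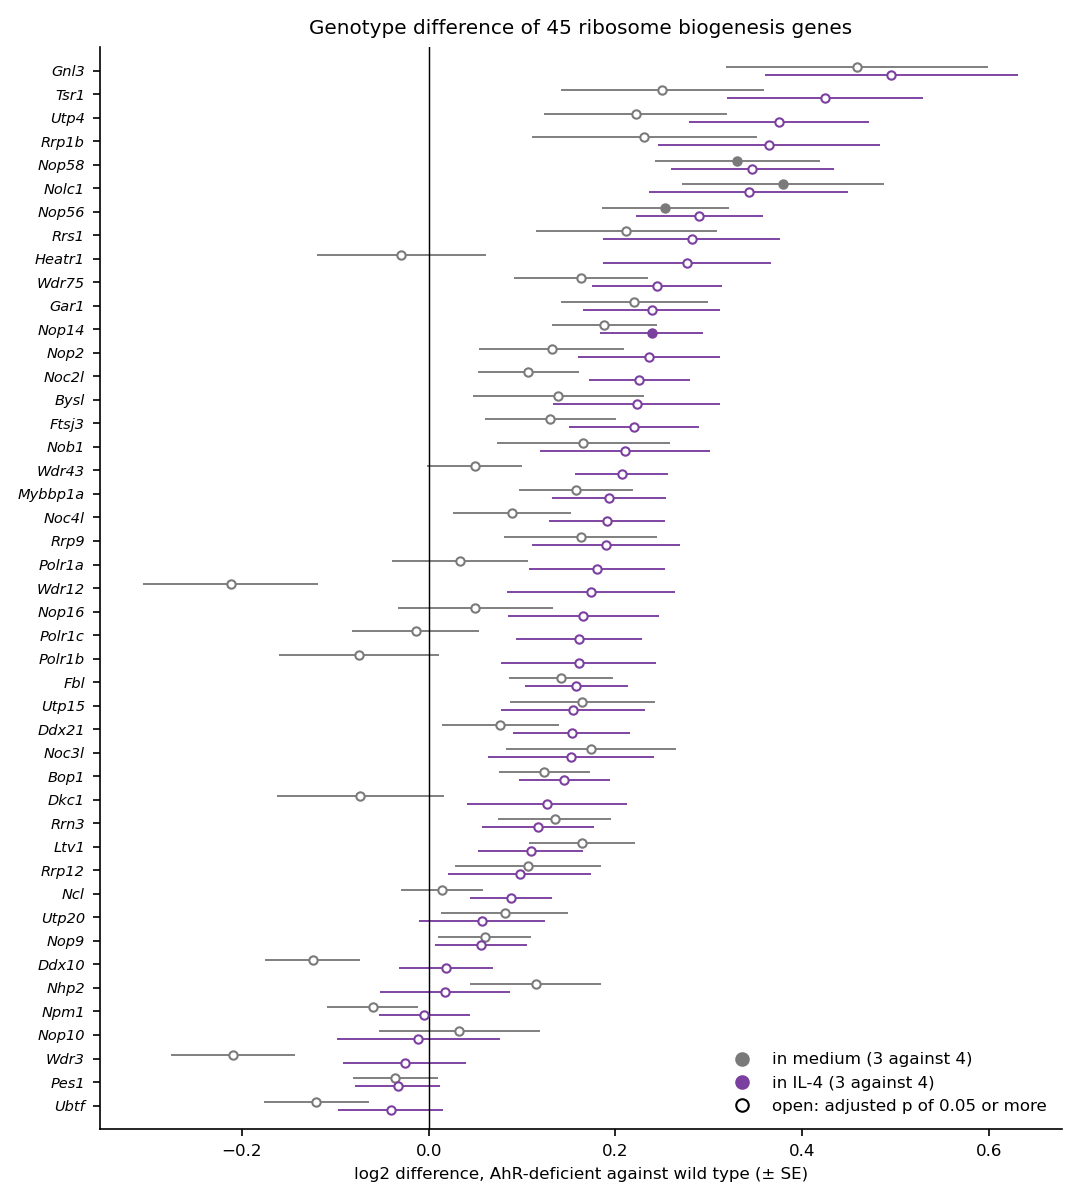
Log2 difference of each of the 45 genes, AhR-deficient (n = 3) against wild type (n = 4), with its standard error, in medium (grey) and in IL-4 (purple); filled points passed an adjusted p of 0.05 and open points did not. Most points lie to the right of 0, with Gnl3 at the top (0.46 and 0.50), and 4 points are filled (Nop58, Nolc1 and Nop56 in medium and Nop14 in IL-4).

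Whether AhR deficiency changes the IL-4 response was tested as an interaction. None of the 45 genes passed, and 0% of all genes tested did (0 of 14754 by edgeR, with 558 at an unadjusted p under 0.05, and 2 called by DESeq2, neither among the 45). Of the 45, 3 had an unadjusted p under 0.05. The difference of the responses, AhR-deficient minus wild type, was above 0 for 35, against 46.5% of all genes tested. These 35 include Npm1, which fell less in AhR-deficient cells, and Polr1a, which was called in neither genotype. The median log2 difference of the responses was 0.07, against -0.01 over all genes. The largest was that of Wdr12 (0.39 ± 0.13, unadjusted p = 0.0103), which had a lower mean in AhR-deficient medium and a higher one in IL-4 than in wild type. Heatr1 (0.31 ± 0.13) and Polr1b (0.24 ± 0.12) followed. With the number as a block, the adjusted p-values of these 3 were 0.509, 0.424 and 0.543. 
Reads from neighbours could bear on some levels. Exons of 21 of the 45 genes overlap exons of another gene in GENCODE M21, and for 12 the neighbour has a mean of at least 1 CPM and lies on the other strand. Besides Mpp1 and Pbrm1 these include Idh3b at Nop56, Ccnd3 at Bysl and Srr at Tsr1. The kit keeps strand, but the strand setting of the counting is not given, so reads of such pairs may not be told apart. In 7 of the 45 genes the introns or exons also hold snoRNA genes, 21 in all, such as Snord57 in Nop56 and Snord70 in Nop58.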

How the data were processed

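The authors deposited 1 table of raw read counts per gene for the 14 libraries. Per the submitters' processing notes, FastQC, STAR and the build mm10 were used, with no versions, and the counting tool and its strand setting are likewise not stated there. Library totals ran from 33432502 to 42885079 counts. Identifiers were matched to GENCODE M21 for names and lengths.

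Counts were tested in edgeR 4.0.16 (R 4.3.3) with TMM scaling, filterByExpr (14754 genes kept), group means over all 14 libraries and the quasi-likelihood F-test, with Benjamini-Hochberg adjustment over all genes tested and a threshold of 0.05. Tables and figures were made with pandas 2.3.3 and matplotlib 3.10.9. The test was tried on simulated data. Alternatives were DESeq2 1.42.0, limma-voom (limma 3.58.1), other scalings and filters, fits of only the groups compared, the library number as a block, and each library left out. The 45 genes and all gene lists were chosen with earlier results of these data known. The rule for named genes opened all 45 to naming, with values in every library for those that led or went against their role group, and took up to 4 genes with the smallest adjusted p in a response from each list of other factors, and Ahr; others were named after their values were seen.

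Libraries of the same number deviated from their group means together, with correlations across 10575 genes of 0.170 to 0.706 in 7 of 7 numbers. Over the 8688 genes of higher level they were 0.118 to 0.716, and number 7, the lowest, did not correlate best with its own number. Since every pair was above 0.1, the numbers were taken to pair medium and IL-4 libraries. This pairing is least certain for number 7, on which the block results in wild type also rest. Libraries within a group differed by more than counting noise (chi-square divided by its degrees of freedom, 13.8 to 60.0), so none was counted as a repeat of another.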

Additional observations from a re-analysis of the deposited data

Results flagged for a closer look

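The level of Gar1 in wild type in medium number 7 was 6.45 CPM, below the other 3 libraries of its group, which lay close together between 7.28 and 7.32 CPM. It stood out because its gap to the nearest library took up nearly the whole range of the group. Of 90 sets of 4 libraries looked at in this way, 1 stood out, and chance alone gives about 1 in 20. The lowest IL-4 library of wild type was at 16.8 CPM, so the rise of Gar1 does not rest on number 7: its log2 fold change was 1.28 to 1.34 when single libraries were left out.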

How the results depend on the processing

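The IL-4 response of the 45 genes held under the alternatives. Genes called higher numbered 36 to 38 in wild type and 37 to 38 in AhR-deficient cells when single libraries were left out, and genes called lower 1 to 2 and 0 to 1. All genes called in either direction then numbered 4644 to 5374 and 3621 to 3906, against 5296 and 4359 in the main fit. With the replicate number as a block there were 39 and 40 called higher, and the calls it added are given with the results. Genes called lower in wild type numbered 1 when only the groups compared were fitted, and in AhR-deficient cells 0 without a filter. Leaving out numbers 1 and 2, chosen after seeing the data, gave 36 higher and 0 lower in wild type, where 3832 of all genes were called. Nop56 then had -0.0063 and Polr1c 0.046. Polr1a in AhR-deficient cells had -0.016 without medium number 6 and -0.020 without IL-4 number 5. Its range over single libraries left out was -0.020 to 0.10. None of these 3 genes was called in the main test.

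The genotype calls moved with nearly every choice. In medium, members higher (3) numbered 1 with upper-quartile scaling, 5 with DESeq2, 0 with only the groups compared, 0 without numbers 1 and 2 and 0 to 5 with single libraries left out, and members lower (0) numbered 1 with upper-quartile scaling, 1 with a filter of 1 CPM, 1 with DESeq2 and 0 to 1 with single libraries left out. All genes called in either direction (1197) numbered 1295 with upper-quartile scaling, 1399 with a filter of 1 CPM and 1902 with DESeq2. They numbered 59 with only the groups compared, 30 without numbers 1 and 2 and 95 to 1716 with single libraries left out. In IL-4, members higher (1) numbered 4 with DESeq2 size factors, 0 with upper-quartile scaling, 5 without a filter, 5 with a filter of 1 CPM, 12 with DESeq2, 5 with limma-voom, 4 with only the groups compared, 8 with the random replicate block, 0 without numbers 1 and 2 and 0 to 6 with single libraries left out. All genes called in either direction (239) numbered 252 with DESeq2 size factors, 273 with upper-quartile scaling, 361 without a filter and 291 with a filter of 1 CPM. They numbered 773 with DESeq2, 295 with limma-voom, 523 with only the groups compared and 420 with the random replicate block. Without numbers 1 and 2 they numbered 25, and with single libraries left out 24 to 315. For the interaction, DESeq2 called 2 genes. The cause of these shifts was not tested.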
